A study of Mus musculus with 4 samples.

Results

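Colon tumours of mice labelled CDX2; Dmt1+/+/ApcF/+ were compared with normal colon of that genotype, as the difference of a pair of arrays chosen by their titles. The pair makes up 2 of the 4 arrays of the series, and 12060 of 22180 measured genes reached the signal level at which they were described. The other 2 arrays hold normal colon and tumour of CDX2; Dmt1F/F/ApcF/+ mice, called F/F here. The letter F usually denotes an allele with flanking loxP sites, which Cre recombinase can delete. Every array shares the C57BL/6 background, an age of 3 months, the ApcF/+ genotype and the label CDX2, which the labels do not spell out. The wild-type pair has both Dmt1 alleles intact.

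Per the design text there were 7 wild-type animals and 4 F/F animals, and the sources used here do not say which animals each array holds or whether their RNA was pooled. Each tissue is therefore 1 array, with no replicate and no error of its own, and every comparison below is a difference of log2 values without a test. The precision is limited by that number of arrays. Whole tissue was measured, so fewer cells of a type and less RNA per cell cannot be told apart.

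Apc is a scaffold of the complex that marks beta-catenin for destruction. When it is lost, beta-catenin enters the nucleus and drives genes with TCF family factors, and in the gut this Wnt programme keeps crypt base cells dividing and holds back the maturation of absorptive and secretory cells. Dmt1, with the gene symbol Slc11a2, carries iron across the membranes of intestinal cells.

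Levels are log2 signals made with RMA, a method that corrects background, brings the arrays to a common distribution and summarises the probes of each gene. A difference is tumour minus normal colon on this scale, so that 1 is 2-fold. Signals of different genes come from different probes and were not ranked against each other. A level under 4.67, the median over all genes, was treated as near background, and a difference with 1 side below it understates the change. Counts in gene lists cover the members that reached this level on at least 1 of the 4 arrays. A member kept through tumour alone therefore counts as higher in part by the way it was kept. A member kept through normal colon alone likewise counts as lower in part by the way it was kept.

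Of the 12060 genes, 791 (6.56%) were 2-fold or more higher in tumour and 640 (5.31%) were 2-fold or more lower. At 4-fold the counts were 185 (1.53%) and 104 (0.862%), at 8-fold 57 (0.473%) and 29 (0.24%), and at 16-fold 18 (0.149%) and 11 (0.0912%). The genes at the higher end were mostly weak in normal colon, with a median level of 5.10 there and 6.80 in tumour, and 297 of the 791 lay below 4.67 in normal colon. The lower genes started from a median of 7.35 and reached 5.72, and 182 of the 640 lay below 4.67 in tumour. Of genes at 8 or more in normal colon, 235 were 2-fold lower and 26 were 2-fold higher, which the plot of both arrays shows as a tail below the diagonal on the right. Choosing genes by their normal level favours lower calls by itself, and genes at 8 or more in tumour were not counted. The median difference over all genes was 0.08. The balance of the calls depended on the scaling: after quantile normalization of the deposited values 687 genes were higher and 752 lower, and after cyclic loess 682 and 755.

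**Figure D1:**
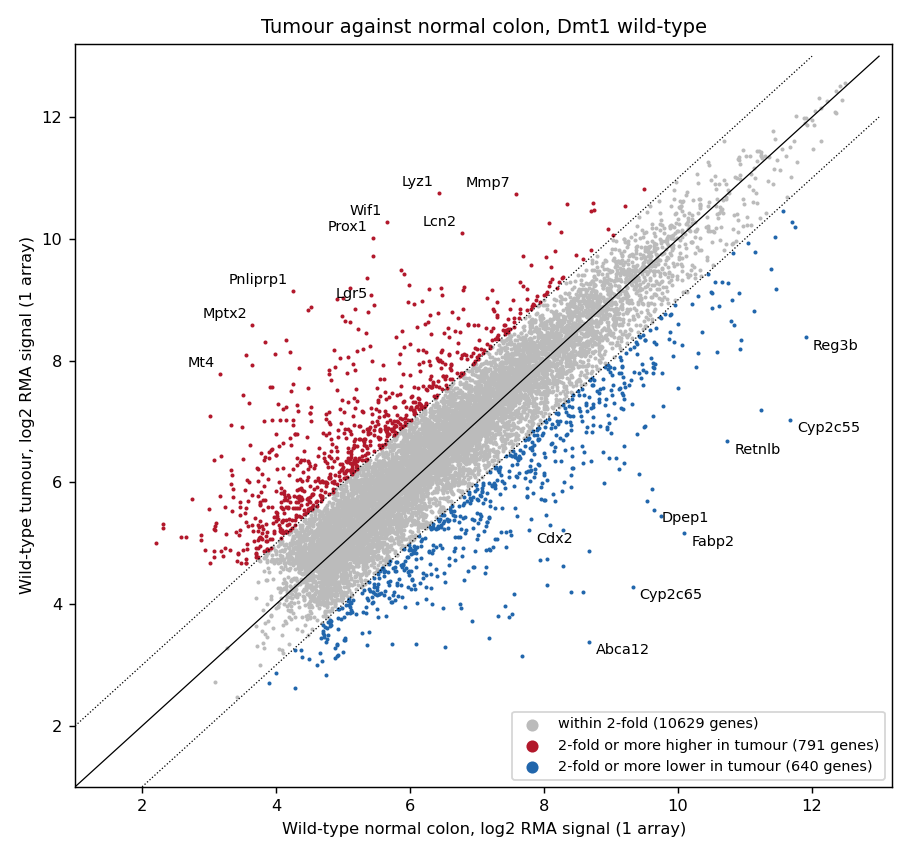
Log2 signal of the 12060 genes in wild-type normal colon (horizontal) and wild-type tumour (vertical), 1 point a gene; the solid line marks equal signal and the dotted lines a 2-fold difference. Red points (791 genes, such as Wif1 and Prox1) lie mostly at the left, at a low normal level, and blue points (640 genes, such as Cyp2c55 and Reg3b) reach far to the right.

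The targeted gene and the labelled tissue were checked next. Slc11a2 was at 6.50 in normal colon and 6.64 in tumour, and Apc at 8.53 in normal colon and 8.62 in tumour, differences of 0.13 and 0.10. All 13 defining markers of colon epithelium reached the level on these arrays, with medians of 10.88 and 10.19. Markers of smooth muscle were lower in tumour (median of 4 genes 10.29 against 7.97) and those of neutrophils higher (median of 5 genes 3.72 against 5.73). None of the 3 measured markers of neurons and glia and 1 of 3 of exocrine pancreas reached the level. Where a gene had several probe sets at the level (282 genes), their differences spread by a median of 0.25, and by over 1 in 18 genes. Of the 19 such genes that passed 2-fold, 16 had all their probe sets on the same side of 0.

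Sex-linked genes were looked at after the values were seen. Xist, the RNA that silences an X chromosome in females, was at 8.95 in normal colon and 7.11 in tumour, whereas the Y-linked Kdm5d (7.13 and 6.91), Uty (7.62 and 7.76) and Eif2s3y (8.2 and 8.22) were nearly level. Both kinds of gene were therefore detected on each array. In the F/F pair Xist went the other way, from 8.55 to 10.10, while Kdm5d, Uty and Eif2s3y differed by -0.974, -0.935 and -0.645. The sex of the animals on each array is not given, and its part was not tested.

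The 30 highest genes included secreted proteins, receptors, an exporter and a transcription factor. Spock2, a secreted matrix proteoglycan, was at 5.44 in normal colon and 9.71 in tumour, a difference of 4.28. Ptprz1, a receptor phosphatase, was at 5.10 in normal colon and 9.19 in tumour, and Tnfrsf11b, the decoy receptor osteoprotegerin, at 5.0 in normal colon and 9.02 in tumour. Robo1, a receptor of Slit guidance proteins, differed by 3.74, and the transcription factor Onecut2 by 3.71, from 3.60 to 7.31. Abcc2, an exporter of conjugated drugs and bilirubin, was higher by 3.94, and Gdf11, a ligand of the TGF-beta family, by 3.65. Asprv1, a skin protease, was the last of the 30 highest genes, with a difference of 3.60.

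The 30 lowest genes were of several kinds, among them carriers, enzymes and goblet cell genes. Slc3a1, the heavy subunit of the cystine and dibasic amino acid carrier, was at 8.67 in normal colon and 4.87 in tumour, a difference of -3.80. Slc10a2, the bile acid transporter of the ileum, was at 7.48 in normal colon and 3.79 in tumour, and the intestinal homeobox factor Isx at 8.29 in normal colon and 4.62 in tumour. Sptssb, a subunit of serine palmitoyltransferase, differed by -3.73, the urea cycle enzyme Otc by -3.45 and the butyrophilin-like Btnl1, which maintains intestinal gamma-delta T cells, by -3.69. Reg3b, an antibacterial lectin of the gut lining, was at 11.91 in normal colon and 8.38 in tumour. Of the 30 highest genes 29, and of the 30 lowest 28, passed 2-fold in the same direction in the F/F pair as well, which shares no array with this pair.

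**Figure D2:**
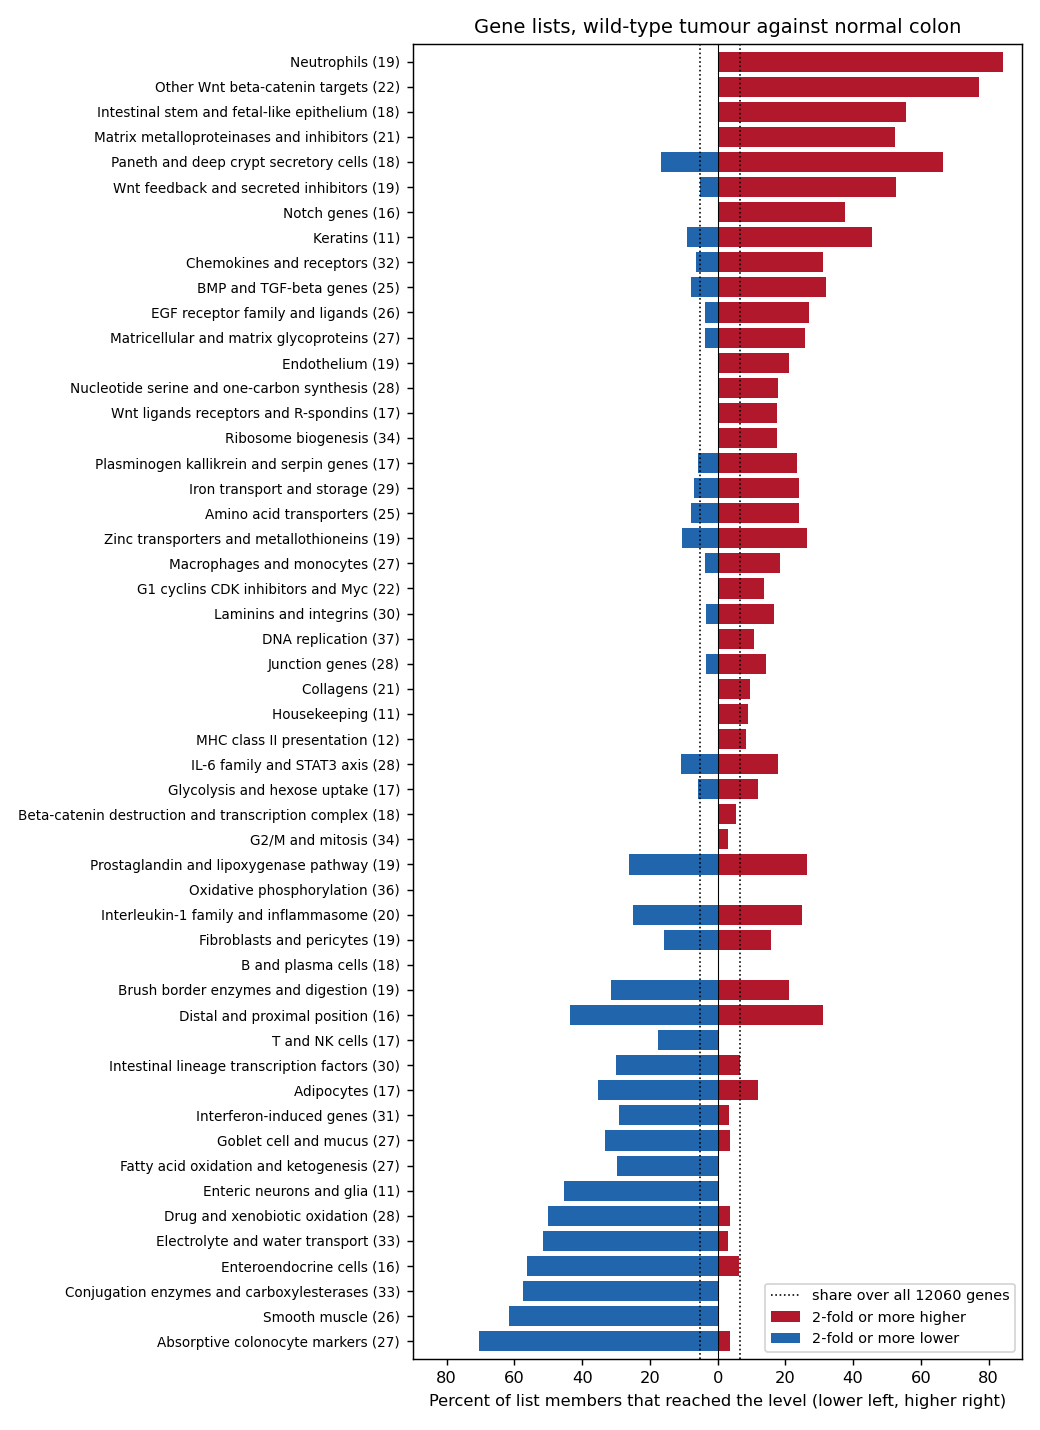
For each gene list with at least 10 members at the level, the percent of those members that were 2-fold or more higher in wild-type tumour (red, right) and lower (blue, left), with the number of members in parentheses; dotted lines mark the shares over all 12060 genes. The lists were chosen with earlier results of these data known. Beta-catenin targets lie near the top (17 of 22 higher) and smooth muscle and absorptive colonocyte markers at the bottom (16 of 26 and 19 of 27 lower). The share of the neutrophil list at the top is partly set by the filter, since 16 of its 19 members lay below 4.67 in normal colon.

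Feedback inhibitors of Wnt signalling were mostly higher. Of 19 members at the level, 10 were 2-fold higher and 1 was lower, with a median of 1.17 against 0.08 for all genes. Wif1, which binds Wnt proteins outside the cell, was at 5.66 in normal colon and 10.27 in tumour, a difference of 4.61. Nkd1, an inhibitor of the cytoplasmic adaptor Dishevelled, was at 5.17 in normal colon and 8.84 in tumour, a difference of 3.67. Notum, an enzyme that strips the lipid from Wnt proteins, was below the level in normal colon at 3.94 and was at 7.56 in tumour. Dkk2, a secreted ligand of the Wnt coreceptors, differed by 3.61, Axin2, a scaffold of the destruction complex and a standard readout of the pathway, by 2.86, and Apcdd1, a membrane inhibitor, by 2.85. Dkk1 was the exception, at 4.71 in normal colon and 3.52 in tumour, a difference of -1.18.

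Receptors, ligands and core components differed far less than targets and inhibitors. Of 18 genes of the destruction and transcription complex, 1 was 2-fold higher, Csnk1e at 5.29 in normal colon and 7.17 in tumour, and none was lower, while 16 of the 18 lay above 0. Ctnnb1, the gene of beta-catenin itself, was at 9.74 in normal colon and 10.24 in tumour, a difference of 0.50. Of 17 ligands and receptors 3 were 2-fold higher and none lower. These were Wnt10a (3.00 to 5.57), Wnt5a (4.3 to 5.43) and the receptor Ror2 (5.34 to 6.36), of which the 2 ligands lay below the level in normal colon. Rspo3, a stromal amplifier of Wnt signals, was at 4.77 in normal colon and 4.06 in tumour.

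Among 22 other beta-catenin targets 17 were 2-fold higher and none was lower, with a median of 1.59. Rnf43 is counted in this list and in that of the feedback inhibitors. Prox1, a homeobox factor of early colon adenomas and of lymphatic vessels, was at 5.45 in normal colon and 10.02 in tumour, a difference of 4.56. Lgr5, the R-spondin receptor that marks crypt base stem cells, was at 5.46 in normal colon and 8.91 in tumour, a difference of 3.46. Lef1, a DNA-binding partner of beta-catenin, differed by 3.19 from a normal level of 3.82 that lay near background, and Sox4 by 2.88. Myc was at 6.45 in normal colon and 8.0 in tumour, whereas the cyclin Ccnd1 stayed within 2-fold at 7.49 in normal colon and 8.32 in tumour. The targets Ascl2 and Lgr6 differed by 2.17 and 2.49, both from below 4.67.

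Genes of stem cells and of the fetal or wound-associated epithelium overlap with this group in part, and 10 of 18 were 2-fold higher with none lower (median 1.11). Il33, an alarm cytokine of the epithelium and stroma, was at 4.91 in normal colon and 7.51 in tumour, a difference of 2.60. Anxa8, an annexin, was at 6.23 in normal colon and 8.59 in tumour, Clu, the chaperone clusterin of regenerating crypts, at 5.90 in normal colon and 8.22 in tumour, and Smoc2, a matrix protein of crypt base cells, at 5.84 in normal colon and 7.96 in tumour. Prom1, a membrane protein of crypt progenitors, ran opposite with 9.43 and 8.59, within 2-fold.

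Transcription factors of intestinal identity were more often lower. Of 30 members 9 were 2-fold lower and 2 higher, with a median of -0.25. The leading ones were Isx, Cdx2 (7.78 and 5.22), the bile acid receptor Nr1h4 (8.59 and 6.50) and Nr5a2 (8.26 and 5.86), a nuclear receptor of crypt and liver cells. Cdx2, which specifies intestine against stomach, differed by -2.56, and the label CDX2 stands for all 4 arrays alike. Sox9, a factor of progenitors and Paneth cells, was the other gene beside Onecut2 above 2-fold, at 6.95 in normal colon and 8.58 in tumour.

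**Figure D3:**
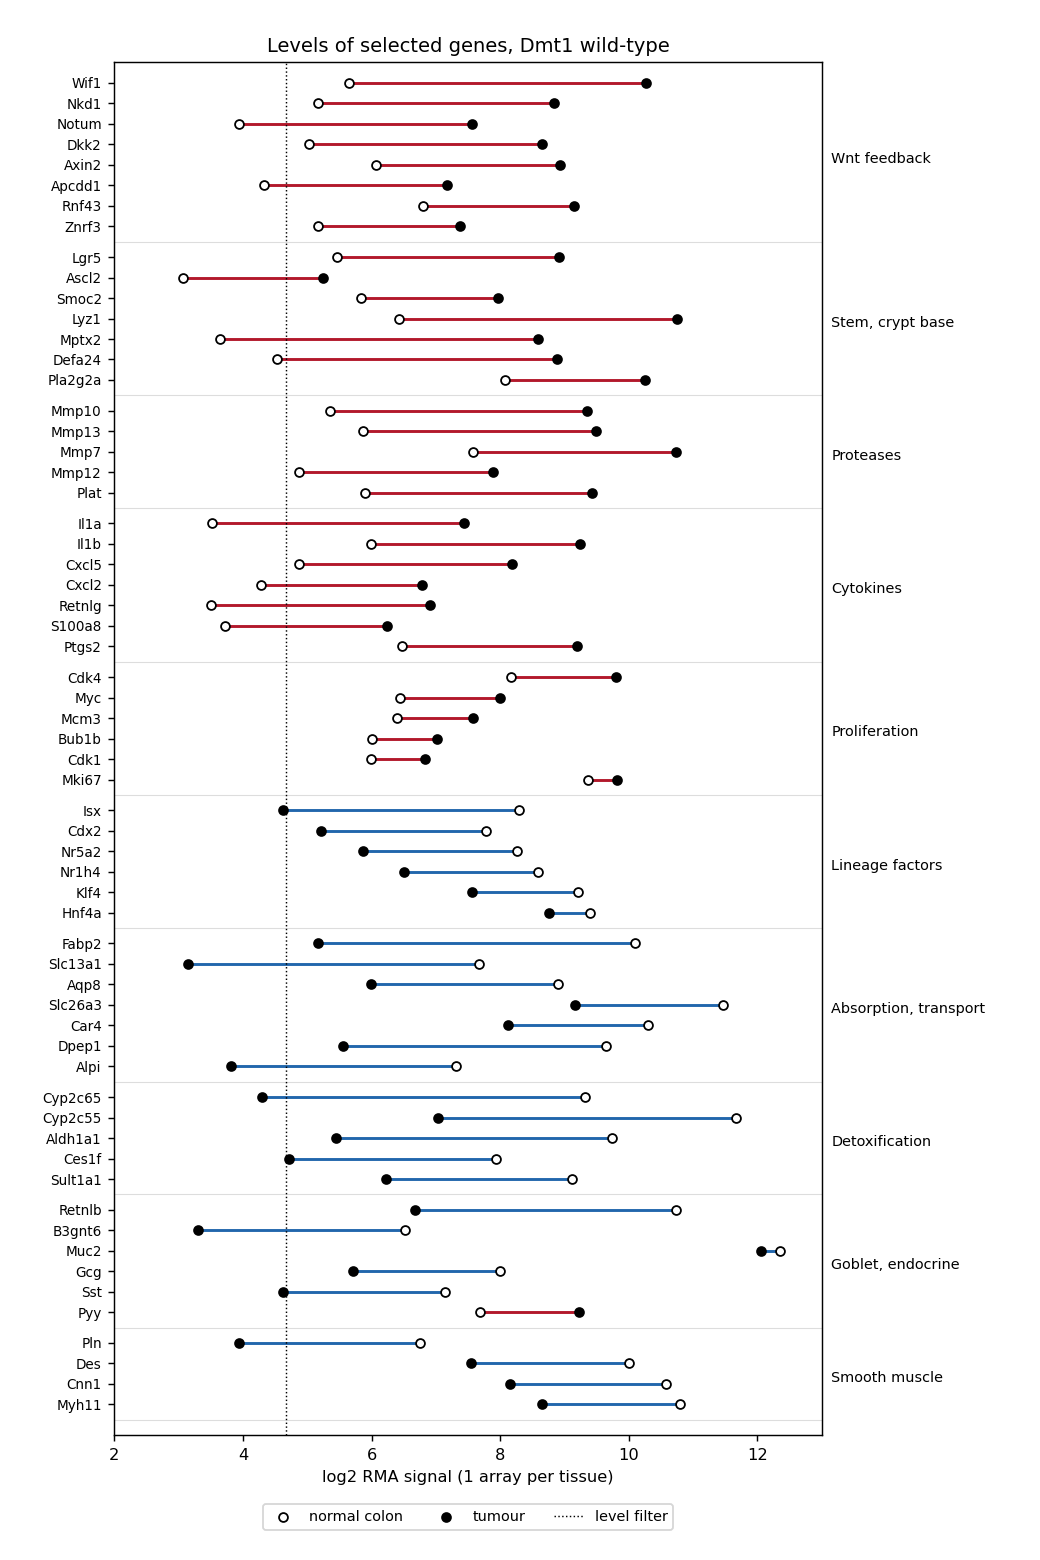
Log2 signal of selected genes in wild-type normal colon (open circles) and tumour (filled circles), 1 array each, grouped by role; red bars join genes higher in tumour, blue bars genes lower, and the dotted line is the level of 4.67. Wnt inhibitors and crypt base genes lie to the right in tumour and absorptive genes to the left, while Mki67 (0.45) and Muc2 (-0.30) differ little.

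Markers of mature absorptive colonocytes had the largest share of lower genes of the 54 lists. Those lists were chosen with earlier results of these data known. Of 27 colonocyte markers 19 were 2-fold lower and 1 was higher, with a median of -1.47. Fabp2, which binds fatty acids in enterocytes, was at 10.09 in normal colon and 5.17 in tumour, a difference of -4.92. Tmigd1, an adhesion protein of the brush border, was at 8.40 in normal colon and 4.20 in tumour, and Aqp8, a water channel, at 8.89 in normal colon and 5.99 in tumour. Emp1, a membrane protein, was at 11.14 in normal colon and 8.81 in tumour, and the sulfotransferase Sult1a1 at 9.12 in normal colon and 6.22 in tumour. Cldn4, a tight junction claudin, was the member that went the other way, at 6.48 in normal colon and 9.07 in tumour, a difference of 2.59.

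Transporters of salt and water followed the same direction, with 17 of 33 members 2-fold lower, 1 higher and a median of -1.0. Slc13a1, a sodium sulfate carrier, went from 7.67 to 3.14, below the level. Slc26a3, the chloride bicarbonate exchanger of the colon surface, was at 11.46 in normal colon and 9.17 in tumour, and the sodium proton exchanger Slc9a2 at 9.62 in normal colon and 7.09 in tumour. Aqp4 was at 10.94 in normal colon and 8.34 in tumour, and Slc5a8, a carrier of short-chain fatty acids, at 10.51 in normal colon and 8.86 in tumour. Trpv6, a calcium channel, was the 1 higher member with a difference of 1.01.

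Brush border and digestive genes divided into opposite groups, 6 of 19 lower and 4 higher. Among the membrane peptidases Dpep1 was lower, at 9.65 in normal colon and 5.55 in tumour, and the meprin subunits Mep1a and Mep1b differed by -2.59 and -2.68. Mme, the peptidase neprilysin, was 2-fold higher at 3.79 in normal colon and 5.07 in tumour, and Anpep (0.79), Dpp4 (-0.53) and Ace (-0.22) stayed within 2-fold. Alpi, the intestinal alkaline phosphatase, was at 7.31 in normal colon and 3.81 in tumour. The lipase relative Pnliprp1 (4.25 to 9.15) and the endocytic receptor Cubn (4.03 to 7.28) were higher, from near background.

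Enzymes that oxidise drugs, steroids and retinoids were lower in 14 of 28 cases and higher in 1, with a median of -0.81. Of the 14 lower genes 5 lay below 4.67 in tumour. Cyp2c65 was at 9.32 in normal colon and 4.29 in tumour, a difference of -5.03, and its neighbour Cyp2c55 at 11.67 in normal colon and 7.03 in tumour, a difference of -4.64, though probe sets of such closely related genes may share signal. Aldh1a1, which makes retinoic acid, was at 9.74 in normal colon and 5.44 in tumour. Cyp27a1, a mitochondrial sterol hydroxylase, was the 1 higher gene, at 5.69 in normal colon and 7.41 in tumour. Among conjugating enzymes and carboxylesterases 19 of 33 were lower and none was higher, the median being -1.15. Of the 19 lower genes 7 lay below 4.67 in tumour. Ces1f, a carboxylesterase, was at 7.94 in normal colon and 4.72 in tumour, Sult1d1, a sulfotransferase, at 9.78 in normal colon and 7.25 in tumour, and Ces2a at 8.40 in normal colon and 5.93 in tumour.

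Fatty acid oxidation genes lay nearly all below 0. Of 27 members 26 lay below 0, as did 43.3% of all genes, and 8 were 2-fold lower, with a median of -0.78. The enzymes Acads and Acaa2 were at 7.92 in normal colon and 6.71 in tumour and at 7.80 in normal colon and 6.57 in tumour, and the carnitine carrier Slc25a20 at 9.51 in normal colon and 8.33 in tumour. Respiratory chain genes lay below 0 in 34 of 36 cases (median -0.56), but none was 2-fold lower, the largest difference being -0.88 for Cox7a1. For glycolysis 2 of 17 were higher, the lactate exporter Slc16a3 (1.58) and the regulator Pfkfb3 (1.15), and Pck1, an enzyme of glucose synthesis, was lower at 7.83 in normal colon and 5.83 in tumour.

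The stretches upstream of 3 of these lower genes are shown because each holds a letter pattern of a factor of intestinal identity, all 3 genes having been picked after their values and matches were seen. They run from 130 bases before to 20 bases after the RefSeq start site on GRCm38.p6: Fabp2 at chr3:122894942-122895091 on the plus strand, Alpi at chr1:87101587-87101736 on the minus strand and Cyp2c65 at chr19:39060876-39061025 on the plus strand. Capitals mark the CDX pattern (CAATAAA or CCATAAA, on either strand) in Fabp2 and the HNF4 pattern (CAAAGTCCA) in Alpi and Cyp2c65.
Fabp2: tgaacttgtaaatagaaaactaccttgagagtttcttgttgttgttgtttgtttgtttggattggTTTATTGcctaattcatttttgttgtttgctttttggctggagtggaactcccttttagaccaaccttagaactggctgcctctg
Alpi: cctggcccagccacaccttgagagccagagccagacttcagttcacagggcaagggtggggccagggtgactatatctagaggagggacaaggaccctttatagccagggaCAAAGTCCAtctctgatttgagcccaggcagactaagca
Cyp2c65: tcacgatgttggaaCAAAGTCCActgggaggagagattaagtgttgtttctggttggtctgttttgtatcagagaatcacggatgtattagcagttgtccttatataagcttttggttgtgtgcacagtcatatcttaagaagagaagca
The match begins 65 bases before the start in Fabp2, 19 before in Alpi and 116 before in Cyp2c65. Over windows of 300 bases around the start (250 before, 50 after), the HNF4 pattern occurred in 0.475% of all 32851 windows and in 0.551% of the 9445 genes at the level that had a window. It occurred in 1.65% of the 485 lower genes with a window, which are 8 genes, and in 0.664% of the 602 higher genes, which are 4. The CDX pattern stood in 7.2% of windows, 5.44% of the genes at the level, 9.69% of lower genes and 5.15% of higher genes. None of the matches shown overlaps another. A match is a string of letters and not a bound site, and no factor's binding was measured.

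Secretory cells differed by type. Goblet cell and mucus genes were 2-fold lower in 9 of 27 cases and higher in 1 (median -0.77), but the main mucin Muc2 was at 12.36 and 12.06. Retnlb, a goblet cell protein with action against bacteria, was at 10.73 in normal colon and 6.67 in tumour, a difference of -4.06, and B3gnt6, which builds core 3 mucin sugars, went from 6.51 to 3.30. Gcnt3, another mucin glycosyltransferase, was at 8.97 in normal colon and 6.97 in tumour, and Muc4, a membrane mucin, at 9.04 in normal colon and 7.31 in tumour. Muc6, a mucin of stomach glands, was the 1 higher gene at 5.15 in normal colon and 6.57 in tumour. Of 16 enteroendocrine genes 9 were 2-fold lower and 1 was higher, with a median of -1.39, and 5 of the 9 lay below 4.67 in tumour. Nts (neurotensin), Sst (somatostatin) and Gcg (the precursor of GLP-1) differed by -2.73, -2.52 and -2.29. Pyy, the peptide of distal endocrine cells, was higher, at 7.68 in normal colon and 9.23 in tumour.

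Paneth cell and deep crypt genes showed the reverse, 12 of 18 being 2-fold higher and 3 lower (median 1.29), Paneth cells being a cell type of the small intestine. Of the 12 higher genes 5 lay below 4.67 in normal colon. Lyz1, the Paneth lysozyme, was at 6.43 in normal colon and 10.75 in tumour, a difference of 4.32. Mptx2, a pentraxin, went from 3.65, near background, to 8.59. The defensin Defa24 was at 4.53 in normal colon and 8.88 in tumour, and Pla2g2a, a secreted phospholipase that kills bacteria, at 8.07 in normal colon and 10.25 in tumour. Mptx1 and Ang4, an antimicrobial ribonuclease, were lower, at 8.02 in normal colon and 5.46 in tumour and at 9.63 in normal colon and 7.89 in tumour. Probe sets of the defensins and pentraxins may take up each other's transcripts, so the member is uncertain. Only 6 tuft cell genes reached the level, of which Avil, the actin-binding advillin, was higher by 3.37 and the other 5 were within 2-fold.

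Secreted proteases of the matrix formed another higher group. Of 21 metalloproteinases and inhibitors 11 were 2-fold higher and none was lower, with a median of 1.16, and 5 of the 11 lay below 4.67 in normal colon. Mmp10, a stromelysin, was at 5.36 in normal colon and 9.35 in tumour, a difference of 3.99. Mmp13, a collagenase, was at 5.86 in normal colon and 9.49 in tumour, a difference of 3.63, and Mmp7, matrilysin of epithelial cells, at 7.57 in normal colon and 10.73 in tumour, a difference of 3.15. Mmp12, the elastase of macrophages, was at 4.87 in normal colon and 7.89 in tumour, Mmp9 at 3.56 in normal colon and 6.04 in tumour, and Adam8, a membrane protease of leukocytes, at 4.00 in normal colon and 6.45 in tumour. The tissue inhibitor Timp1 was also higher, from 3.75 to 5.11. Plat, the tissue plasminogen activator, was at 5.90 in normal colon and 9.42 in tumour, a difference of 3.52, with Plau at 5.32 in normal colon and 6.66 in tumour.

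Mmp13, Mmp12, Mmp10, Mmp8 and Mmp7 lie side by side on chromosome 9 among the genes at the level, and all 5 were 2-fold higher. The promoter stretches of Mmp13, Mmp10 and Mmp7 are shown since these neighbours share a pattern of AP-1, the Fos and Jun dimer, near the start site. Coordinates on GRCm38.p6, plus strand, are chr9:7272384-7272533 for Mmp13, chr9:7502212-7502361 for Mmp10 and chr9:7691960-7692109 for Mmp7, again from 130 bases before to 20 after the start. The 3 genes were picked after their matches were seen. Capitals mark AP-1 (TGANTCA, which reads alike on both strands) and, in Mmp7, also the TCF pattern CTTTGAT, read on the opposite strand.
Mmp13: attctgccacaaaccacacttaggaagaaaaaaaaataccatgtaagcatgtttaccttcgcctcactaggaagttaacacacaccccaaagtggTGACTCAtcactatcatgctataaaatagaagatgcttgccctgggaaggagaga
Mmp10: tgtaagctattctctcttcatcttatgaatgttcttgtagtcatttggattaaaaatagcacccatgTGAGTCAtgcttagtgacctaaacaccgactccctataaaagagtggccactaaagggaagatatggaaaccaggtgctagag
Mmp7: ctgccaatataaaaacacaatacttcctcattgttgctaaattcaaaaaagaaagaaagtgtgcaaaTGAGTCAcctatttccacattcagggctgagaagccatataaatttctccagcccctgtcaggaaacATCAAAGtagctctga
The AP-1 match starts 35 bases before the start site in Mmp13 and 63 before in both Mmp10 and Mmp7, and the TCF match of Mmp7 begins at base 5 after it. Of the 2 windows of Mmp12, 1 held an AP-1 match. The second window of Mmp7, around another start, overlaps the first and held the same TCF match, without AP-1. The window of Mmp8 held neither pattern, and that of Mmp3, a neighbour below the level on both arrays (2.91 and 4.49), held 1 AP-1 match. AP-1 letters occurred in 7.81% of all windows, in 6.7% of the genes at the level, in 9.97% of the higher genes and in 11.1% of the lower genes. The TCF pattern stood in 3.73% of windows, 3.08% of the genes at the level, 5.48% of the higher and 2.89% of the lower genes.

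Structural matrix genes were higher in smaller number. Of 21 collagens 2 were 2-fold higher and none was lower, a higher share of 9.5% beside 6.56% over all genes. These were the fibrillar Col1a1 (7.14 and 8.54) and the fibril-associated Col12a1 (6.41 and 8.0). Matricellular genes were higher in 7 of 27 cases and lower in 1. Thbs2, a thrombospondin, was at 5.19 in normal colon and 7.53 in tumour, fibronectin (Fn1) at 8.72 in normal colon and 10.58 in tumour, and the collagen crosslinking oxidase Lox at 4.00 in normal colon and 5.51 in tumour. Among laminins and integrins 5 of 30 were higher, with Itgb8, an activator of latent TGF-beta, at 4.74 in normal colon and 7.13 in tumour and the basement membrane chains Lama5 at 4.79 in normal colon and 7.16 in tumour and Lama3 at 6.48 in normal colon and 8.18 in tumour. Itga8, an integrin of smooth muscle, was the 1 lower gene.

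Keratins went both ways. Krt23 was at 5.11 in normal colon and 8.64 in tumour, Krt36 at 4.25 in normal colon and 7.03 in tumour and Krt7, a keratin of ducts and fetal epithelium, at 6.32 in normal colon and 7.57 in tumour, whereas Krt20, the keratin of the mature colon surface, was at 11.70 in normal colon and 10.28 in tumour. Altogether 5 of 11 keratins were 2-fold higher and 1 was lower, and 3 of the 5 lay below 4.67 in normal colon. Of 28 junction genes 23 were within 2-fold. The higher share was 14.3%, beside 6.56% over all genes, and the lower share 3.6%, beside 5.31%. Epcam (10.88 and 10.99) and E-cadherin, Cdh1 (10.71 and 10.90), were close on the arrays. Cldn15, a claudin that passes sodium, was the 1 lower junction gene, at 7.27 in normal colon and 5.06 in tumour.

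Growth factor genes that differed were mainly ligands and binding proteins. In the EGF, IGF and FGF list 7 of 26 were 2-fold higher and 1 was lower (median 0.22). Igfbp5 and Igfbp4, binding proteins of the insulin-like growth factors, were at 6.81 in normal colon and 9.21 in tumour and at 6.27 in normal colon and 8.63 in tumour, and Igf1 itself at 5.41 in normal colon and 7.22 in tumour. Ereg, a ligand of the EGF receptor, was at 6.67 in normal colon and 8.48 in tumour, and Nrg1, a ligand of ERBB receptors, at 6.47 in normal colon and 7.98 in tumour. In the BMP and TGF-beta list 8 of 25 were higher and 2 lower. Bmp7 was at 5.39 in normal colon and 8.25 in tumour, a difference of 2.85, Inhba, the activin subunit, went from 3.35 to 6.13, and Bmp3, a BMP antagonist, was lower at 7.36 in normal colon and 5.19 in tumour. Of 16 Notch genes 6 were higher and none lower, led by Hes6 (1.80) and Notch2 (1.39).

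Genes of mitosis and replication lay mostly above 0, by small amounts. Of 34 genes of G2 and mitosis, 33 lay above 0, yet 1, Bub1b of the spindle checkpoint, was 2-fold higher, and the median was 0.62. Mki67 was at 9.37 in normal colon and 9.82 in tumour and Cdk1 at 5.99 in normal colon and 6.83 in tumour. All 37 replication genes lay above 0 (median 0.56), with 4 at 2-fold, among them the helicase subunits Mcm3 (1.19), Mcm2 (1.10) and Mcm7 (1.08). For comparison, 56.7% of all genes lay above 0. The list of G1 cyclins, their inhibitors and Myc did not share this, with 11 of 22 above 0, 11 below, 3 at 2-fold higher and a median of 0.15. Cdk4 of that list, the partner of D-type cyclins, was at 8.16 in normal colon and 9.81 in tumour, a difference of 1.64.

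Ribosome assembly and the making of building blocks showed a like direction. Of 34 ribosome biogenesis genes 32 lay above 0 and 6 were 2-fold higher (median 0.75), with Mybbp1a at 6.78 in normal colon and 8.10 in tumour and Gar1, a component of snoRNA particles, at 6.41 in normal colon and 7.67 in tumour. Of 28 genes of nucleotide, serine and one-carbon synthesis 5 were higher, including Ppat, which opens purine synthesis, at 6.91 in normal colon and 8.08 in tumour and the mitochondrial Shmt2 at 5.99 in normal colon and 7.20 in tumour. Amino acid carriers divided: 6 of 25 were higher and 2 lower, the lower share being 8.0% beside 5.31% over all genes. Slc7a11, the cystine importer that feeds glutathione, was at 4.34 in normal colon and 7.88 in tumour, a difference of 3.54, Slc38a4 at 5.42 in normal colon and 7.99 in tumour, and Slc3a1 and Slc6a14 were the lower members, Slc6a14 at 11.45 in normal colon and 10.03 in tumour.

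Inflammatory genes differed by branch. In the interleukin-1 and inflammasome list 5 of 20 were higher and 5 lower (median -0.07). The cytokines Il1a and Il1b were at 3.51 in normal colon and 7.43 in tumour and at 5.99 in normal colon and 9.24 in tumour, while the inflammasome sensor Nlrp6 of colon epithelium was at 8.16 in normal colon and 6.58 in tumour and the pore-forming Gsdmc2 at 9.48 in normal colon and 7.60 in tumour. Of 32 chemokines and receptors 10 were higher and 2 lower, and 5 of the 10 lay below 4.67 in normal colon. Cxcl5, Cxcl3 and Cxcl2, which draw neutrophils through Cxcr2, differed by 3.31, 3.01 and 2.51, though Cxcl2 and Cxcl3 are close relatives whose probes may share signal. Ccl5, a T cell chemokine, was lower, at 7.74 in normal colon and 5.78 in tumour.

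Of all 28 measured neutrophil genes, with no filter on level, 17 were 2-fold higher and none was lower, beside 837 and 680 of all 22180 genes. The 19 that reached 4.67 include 16 that lay below it in normal colon and so were kept through another array, which shapes any count over them. Retnlg was at 3.50 in normal colon and 6.92 in tumour, S100a8, a subunit of calprotectin, at 3.72 in normal colon and 6.24 in tumour, and Acod1, which makes itaconate, at 3.78 in normal colon and 6.48 in tumour. Lcn2, which epithelial cells make too, was at 6.78 in normal colon and 10.09 in tumour. Of 27 macrophage genes 5 were higher and 1 lower (median 0.48), with Arg1 at 4.10 in normal colon and 6.24 in tumour and the engulfment receptor Mertk lower at 7.74 in normal colon and 5.91 in tumour. In the IL-6 and STAT3 list 5 of 28 were higher and 3 lower, Stat3 (8.94 and 9.29) and Jak1 (8.64 and 8.53) being close to level, with Il11 at 3.34 in normal colon and 5.53 in tumour and the antibacterial Reg3g at 10.92 in normal colon and 8.19 in tumour.

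Lipid mediator genes also went both ways, 5 of 19 in each direction. Ptgs2, the inducible cyclooxygenase, was at 6.47 in normal colon and 9.20 in tumour, a difference of 2.73, and Hpgd, the enzyme that breaks down prostaglandin E2, was at 9.87 in normal colon and 8.36 in tumour. Slco2a1, the transporter that takes prostaglandins up for breakdown, was lower, at 9.41 in normal colon and 7.80 in tumour. Alox12, a lipoxygenase, was at 3.83 in normal colon and 8.31 in tumour, and Pla2g4c, a cytosolic phospholipase, at 8.29 in normal colon and 5.22 in tumour.

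None of 17 T and NK cell genes and none of 18 B and plasma cell genes was 2-fold higher. In the T and NK list 3 were lower, Gzma, a granzyme (6.41 and 4.46), Klrd1 (6.02 and 4.25) and Cd7 (6.72 and 5.35). No B cell gene passed 2-fold and 15 of 18 lay below 0. Of 31 listed interferon-induced genes 9 were lower and 1 was higher (median -0.48). The list leaves out the interferon-induced membrane proteins Ifitm1, Ifitm2 and Ifitm3. These were higher by 1.59, 1.51 and 2.24 and were named after their values were seen. Oasl1 was at 7.73 in normal colon and 6.17 in tumour, Ifit1 at 8.32 in normal colon and 6.78 in tumour and the regulator Irf7 at 8.72 in normal colon and 7.24 in tumour, whereas Cxcl9 was higher, at 8.58 in normal colon and 9.66 in tumour. Of 12 MHC class II presentation genes 11 lay below 0, none at 2-fold, and the costimulator Cd80 was higher by 1.08.

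Smooth muscle genes were lower in 16 of 26 cases and higher in none, with a median of -1.32. Of the 16 lower genes 5 lay below 4.67 in tumour. Des, the muscle intermediate filament, was at 10.003 in normal colon and 7.55 in tumour, a difference of -2.45, calponin (Cnn1) at 10.58 in normal colon and 8.15 in tumour and the muscle myosin Myh11 at 10.80 in normal colon and 8.64 in tumour. The F/F pair had smaller values for these genes, -0.43 for Des, -0.77 for Cnn1 and -0.70 for Myh11. The signal of muscle wall genes therefore differed beside every epithelial difference given here, and its part in those was not tested. Enteric neuron and glia genes were lower in 5 of 11 cases, such as Snap25 of synapses at 6.93 in normal colon and 5.25 in tumour. Adipocyte genes were lower in 6 of 17 cases, Car3 at 6.94 in normal colon and 4.62 in tumour and Fabp4 at 7.18 in normal colon and 5.41 in tumour, while the lipid synthesis enzymes Fasn and Scd1 were higher by 1.06 and 1.05. Below 4.67 in tumour lay 4 of the 6 lower adipocyte genes and 3 of the 5 lower neuron and glia genes.

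Endothelial genes were on the higher side, and fibroblast genes were divided. Of 19 endothelial genes 18 lay above 0 and 4 were 2-fold higher, with Angpt2, a destabiliser of vessels, at 4.46 in normal colon and 6.75 in tumour and Sox17 at 4.42 in normal colon and 6.37 in tumour, and Prox1 belongs to this list as well. Of 19 fibroblast and pericyte genes 3 were 2-fold higher and 3 lower. Vim, the filament of mesenchymal cells, was at 8.69 in normal colon and 10.46 in tumour, and the pericyte marker Rgs5 at 10.06 in normal colon and 8.25 in tumour.

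Iron genes, the subject of the Dmt1 alleles, were higher in 7 of 29 cases and lower in 2 (median 0.13). The lower share was 6.9%, beside 5.31% over all genes. Heph, the ferroxidase of enterocytes that acts in iron export, was lower, at 8.83 in normal colon and 7.31 in tumour, and the exporter ferroportin (Slc40a1) at 8.83 in normal colon and 7.97 in tumour. The transferrin receptor Tfrc was at 9.03 in normal colon and 8.70 in tumour. Abcg2, an exporter of porphyrins and drugs, was at 8.01 in normal colon and 5.70 in tumour. Cp, the plasma ferroxidase ceruloplasmin, was higher, at 6.11 in normal colon and 8.18 in tumour, the metalloreductases Steap2 and Steap4 at 5.17 in normal colon and 6.68 in tumour and at 6.32 in normal colon and 7.75 in tumour, and Lcn2, which binds bacterial iron carriers, is given above.

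Zinc genes held some of the largest differences. Of 19 zinc transporters and metallothioneins 5 were higher and 2 lower. Mt4, a metallothionein of stratified epithelium, went from 3.17 to 7.77, and Mt3, the brain form, from 5.07 to 8.06. The widely expressed Mt1 and Mt2 were within 2-fold, at 8.96 in normal colon and 9.26 in tumour and at 9.95 in normal colon and 10.81 in tumour. Slc30a2, a vesicular zinc transporter of secretory cells, was at 4.91 in normal colon and 9.0 in tumour, a difference of 4.09, and Slc39a10, a zinc importer, at 5.85 in normal colon and 7.45 in tumour.

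Markers of position along the gut differed as well. Of 16 distal and proximal genes 5 were higher and 7 lower. The posterior homeobox gene Hoxd13 was at 6.86 in normal colon and 8.58 in tumour, and the proximal factor Osr2 at 7.17 in normal colon and 3.44 in tumour. Hoxb3, Hoxb4, Hoxb5, Hoxb6 and Hoxb7 were all lower, with differences of -1.60 (Hoxb3), -1.40 (Hoxb4), -2.05 (Hoxb5), -2.27 (Hoxb6) and -1.58 (Hoxb7), while Hoxb9 differed by -0.20 and Hoxb13 by 1.14. The labels do not say whether tumour and normal colon came from the same segment, and the part of position in the absorptive gene values was not tested.

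Some neighbouring genes differed together. Among 12041 genes with a RefSeq position, 17 runs of at least 3 adjacent genes were all 2-fold higher and 16 runs all 2-fold lower, 112 genes in total. How many such runs gene order alone would give was not tested. The longest was a run of 6 protocadherin beta genes on chromosome 18, Pcdhb14 and Pcdhb16 to Pcdhb20, higher by 1.11 to 1.70. Of these only Pcdhb20 (5.08) lay above 4.67 in normal colon, so the others were kept through another array. Neighbours that did not reach the level were skipped in all runs. Runs of 5 were the Mmp genes, Hoxb3 to Hoxb7 on chromosome 11, and Ces1d to Ces1g with Gnao1 on chromosome 8. Carbonic anhydrases Car13, Car1, Car3 and Car2 on chromosome 3 were lower by -1.47 to -2.32, and the membrane proteins Ifitm1, Ifitm2 and Ifitm3, which restrict viruses, were higher by 1.51 to 2.24 on chromosome 7. Close relatives may share probe signal.

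**Figure D4:**
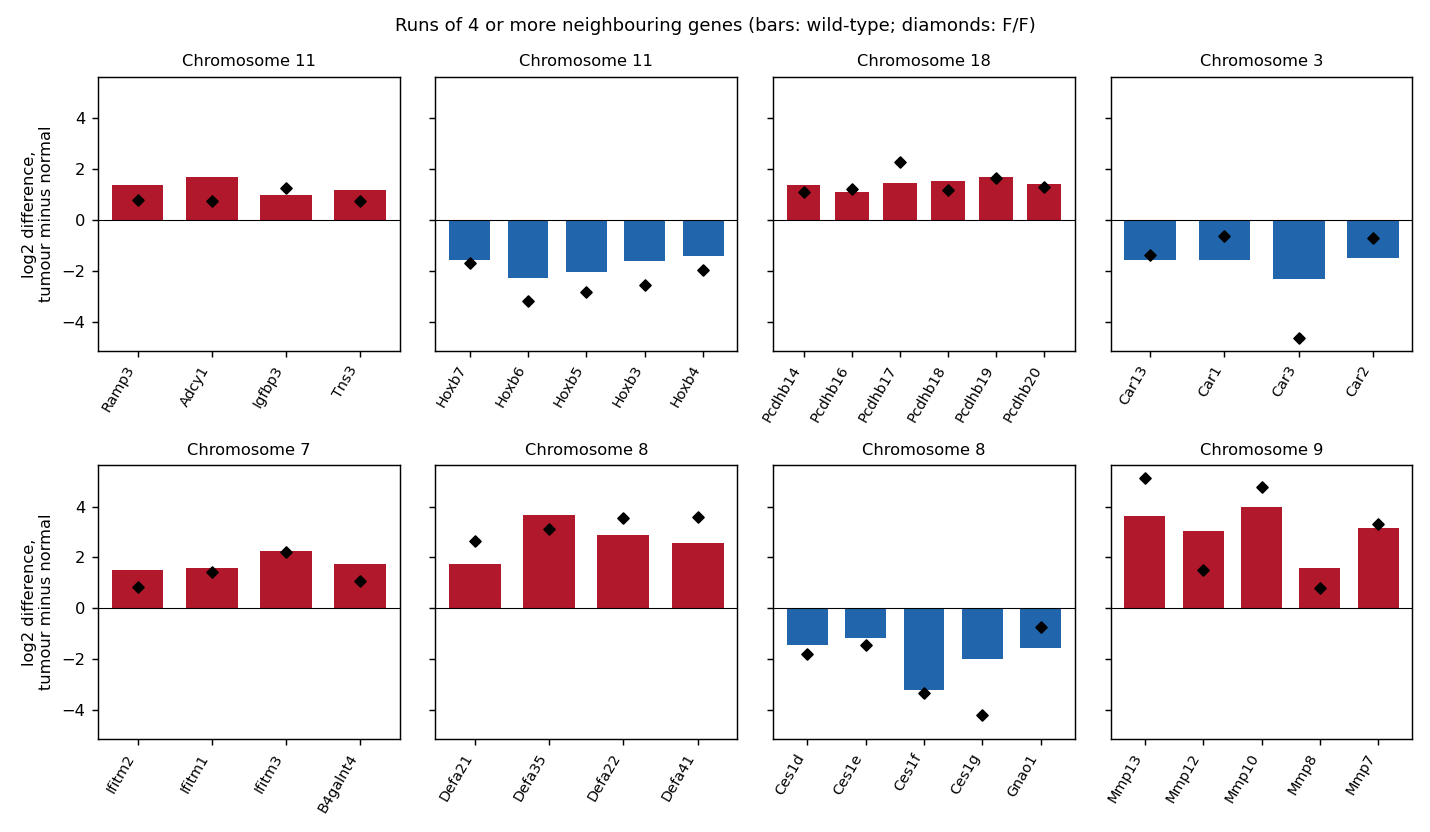
Log2 difference, tumour minus normal, for each run of 4 or more adjacent genes that were all 2-fold higher or all 2-fold lower in the wild-type pair; bars are the wild-type pair and diamonds the F/F pair, in genome order. The Mmp run on chromosome 9 reaches 3.99 (Mmp10) and the Hoxb run on chromosome 11 reaches -2.27 (Hoxb6).

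A run on chromosome 4 held a microRNA. Mir31, a microRNA raised in many colon tumours, was at 3.63 in normal colon and 5.80 in tumour, the adjacent noncoding Wincr1 at 3.07 in normal colon and 4.77 in tumour, and Mtap, an enzyme of methionine salvage, at 5.78 in normal colon and 8.38 in tumour. Which form of the RNA the Mir31 probe set reads was not examined, and overlapping transcripts cannot be told apart. The mature strands, at chr4:88910614-88910635 and chr4:88910577-88910599 on the minus strand of GRCm38.p6, are given from RefSeq with the seed (bases 2 to 8), which pairs with targets, in capitals.
miR-31-5p: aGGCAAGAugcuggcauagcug
miR-31-3p: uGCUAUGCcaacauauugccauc

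Families taken by gene symbol differed from each other, and their counts stand beside 6.56% higher and 5.31% lower over all genes. Of 35 cytochrome P450 genes 1 was 2-fold higher and 12 were lower. Of 246 zinc finger genes with a Zfp symbol 176 lay above 0 (median 0.24), 10 were higher and 1 lower. Of 66 cytosolic ribosomal protein genes 58 lay above 0 with a median of 0.33, and 1 was 2-fold higher. Of 66 mitochondrial ones none passed 2-fold, and 37 lay above 0 with a median of 0.04, a sign that turned to -0.04 under quantile normalization and -0.05 under cyclic loess. Of 223 solute carriers 24 were higher and 29 lower.

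The F/F pair gave the same comparison on arrays of its own, where 721 genes (5.98%) were 2-fold higher and 460 (3.81%) lower. The higher lists shared 439 genes, 55.5% of the wild-type list and 60.9% of the F/F list, and the lower lists 311, 48.6% and 67.6%. Of the 791 wild-type higher genes 778 lay above 0 in the F/F pair, and of the 640 lower genes 605 lay below 0. Single genes stood apart in either pair, and those given here were picked after their values were seen. Mptx2 differed by 4.94 and 0.96, Pla2g4c by -3.07 and 0.21, Aqp4 by -2.60 and -0.16, and Mptx1 by -2.56 and 0.26, wild-type first. In the reverse case Hoxd13 differed by 1.72 and 5.33, and Tgm3, a transglutaminase of surface epithelium, by -0.18 and 3.15. For Pla2g4c the normal arrays lay further apart (8.29 and 5.66) than the tumour arrays (5.22 and 5.87). The same held for Hoxd13 (normal 6.86 and 3.02, tumour 8.58 and 8.35) and Tgm3 (normal 9.44 and 7.53, tumour 9.26 and 10.68). For Mptx2, Aqp4 and Mptx1 the tumour arrays lay further apart, at 8.59 and 4.46 for Mptx2. Of the 18 B and plasma cell genes none was 2-fold higher in the wild-type pair and 11 were in the F/F pair. Over all genes the higher shares were 6.56% and 5.98%. In the wild-type pair 5 of the 18 lay below 4.67 in normal colon and 9 in tumour. Members kept through an F/F array alone shape this contrast.

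In the smooth muscle list 2 of the 16 lower genes were 2-fold lower in the F/F pair as well. For absorptive colonocyte markers this was 8 of 19, and for conjugating enzymes 14 of 19, beside 48.6% of all lower genes of the wild-type pair. The absorptive share lay near that over all genes. In the list of feedback inhibitors 8 of 10 higher genes were shared, and in the Paneth list 9 of 12, beside 55.5% of all higher genes. With 1 array for each tissue and genotype, no difference between the genotypes was tested.

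**Figure D5:**
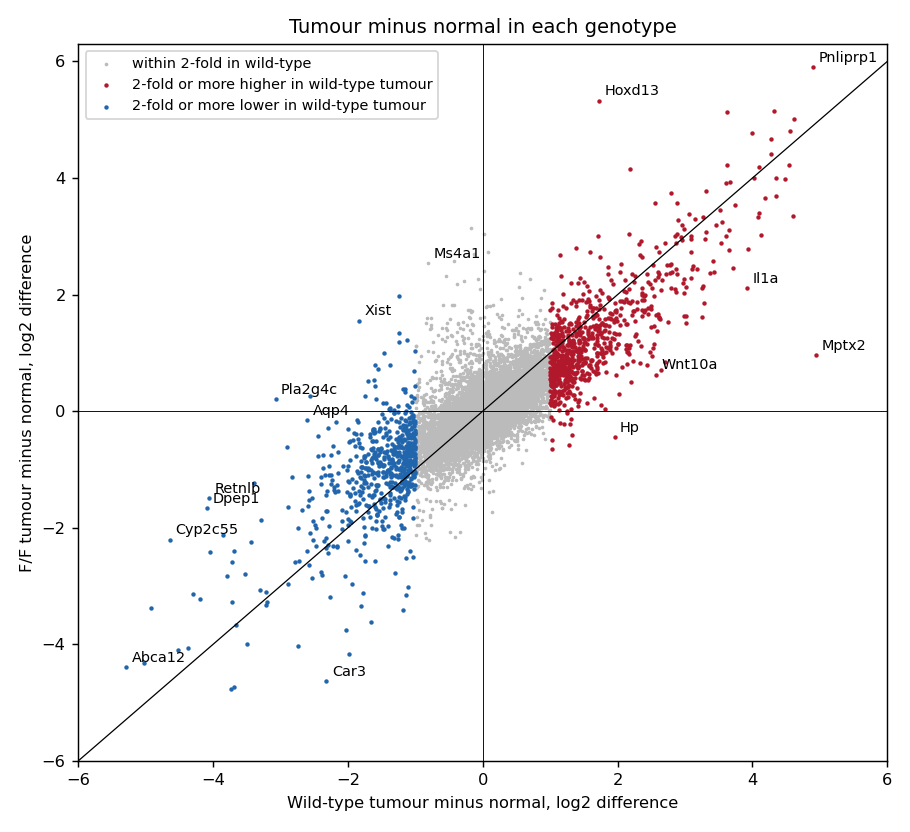
Log2 difference, tumour minus normal, of the 12060 genes in the wild-type pair (horizontal) and in the F/F pair (vertical), 1 point a gene; the diagonal marks equal differences and colours mark genes 2-fold or more apart in the wild-type pair. Most red points lie above 0 and most blue points below 0 on the vertical axis, with Mptx2 (4.94 and 0.96) and Pla2g4c (-3.07 and 0.21) far from the diagonal. For Pla2g4c the normal arrays lay further apart than the tumour arrays, and for Mptx2 the tumour arrays did.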

How the data were processed

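RNA from normal colon and colon tumours, extracted with Trizol and labelled with biotin from 400 ng per the labels' protocols, was measured on Affymetrix whole-transcript arrays. The deposited values are log2 signals per probe set, which the authors made with the oligo package by RMA, per the submitters' processing notes. Versions are not given in the sources used here. RMA equalises the probe distributions of the arrays, and the deposited medians still ran from 4.27 to 4.34. It gives no detection call. The table held 41345 probe sets and 0 columns of another sample.

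Probe sets were named from the platform annotation: 23521 had exactly 1 gene, 1814 several and 16010 none, and 23328 of the first matched RefSeq (GRCm38.p6). The 22180 genes took the probe set with the highest mean over the 4 arrays (1082 had more than 1). Genes whose highest value over the 4 arrays fell short of log2 4.67 were left out. Differences were computed in Python (pandas 2.3.3), and a log2 difference of 1 was counted as 2-fold. The counting was checked on simulated data.

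The genes named are the 30 highest and lowest, up to 6 with the largest absolute difference in each of 54 lists, and 14 set genes. The members and lists (1644 entries, 1554 genes, of which 1135 were kept and 124 not measured) were chosen with earlier results of these data known. Named after their values were seen were the sex-linked genes, members of neighbour runs and of the Hoxb cluster, Hoxd13, Mmp3, Mmp8, Mir31, Wincr1, Mtap, Mt1, Mt2, Muc2, Muc6, Slc40a1, Tfrc, Timp1, Mep1a, Hpgd, Cyp27a1, Dkk1, Prom1, Pyy, Sox9, Trpv6, Cxcl9, Fasn, Scd1, Mme, Anpep, Dpp4, Ace and Tgm3. Promoter windows and microRNAs come from RefSeq's GRCm38.p6 tables. Alternatives changed the filter, the scaling (limma 3.58.1 in R 4.3.3), the probe set rule and the fold threshold.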

Additional observations from a re-analysis of the deposited data

Results flagged for a closer look

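In 6 genes the wild-type and F/F pairs differed by 2-fold or more in opposite directions, and that difference between the genotypes was not tested. Xist, the RNA of X inactivation, differed by -1.84 in the wild-type pair and 1.55 in the F/F pair. The Y-linked Kdm5d, Uty and Eif2s3y differed by -0.220, 0.135 and 0.018 in the wild-type pair. In the F/F pair they differed by -0.974, -0.935 and -0.645. The sex of the animals on each array is not given, so sex and genotype cannot be told apart here. St8sia5, a sialyltransferase, differed by -1.24 and 1.98, and Cyp2d13, a cytochrome P450, by -1.25 and 1.33. Apol7c, an apolipoprotein L gene, differed by -1.25 and 1.18, the immunoglobulin segment Igkv9-124 by -1.13 and 1.22, and 2010106E10Rik by -1.0 and 1.03. Each value rests on 1 array a side.

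Probe sets without a single gene name took no part in the comparison. Of 8192 such probe sets at the level, 555 were 2-fold or more higher in wild-type tumour and 293 were 2-fold or more lower. For comparison, of the 12060 genes 791 (6.56%) were higher and 640 (5.31%) lower.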

How the results depend on the processing

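Counts of higher and lower genes stayed within 1.5 times the reported 791 and 640 under the alternatives for the filter, scaling and probe sets: 837 and 680 with no filter, 577 and 540 with a filter at log2 6, 791 and 631 with a filter on the wild-type arrays, 739 and 693 with each array centred on its median, 774 and 618 with the mean of probe sets. The share of higher among all calls was 55.3% as deposited, 51.6% with centring, 47.7% with quantile normalization and 47.5% with cyclic loess. The threshold set the counts: 2055 higher and 1546 lower at 1.5-fold, and 185 and 104 at 4-fold. No named gene that passed 2-fold changed sign in any alternative it could be computed in, and 10 of 2310 gene values moved by 1.5-fold or more, all with the mean of probe sets. Of 108 list counts (54 lists, higher and lower), 10 moved by more than 1.5 times with the filter at log2 6, 7 each with quantile normalization and cyclic loess, 4 with centring, 1 each with no filter and with the mean of probe sets, and 0 with the filter on the wild-type arrays, while 43 moved at 1.5-fold and 73 at 4-fold. Scaling took the list medians from -0.88 to -0.63 for drug oxidation, 0.15 to 0.33 for collagens and 0.06 to 0.17 for chemokines. With the filter at log2 6 the neutrophil list held 7 genes, 5 of them higher. Of 58 lists and families, 2 had a median whose sign turned with the scaling, the junction genes (0.05 to -0.02) and the mitochondrial ribosomal proteins (0.04 to -0.05). A fold threshold has no bearing on a single difference, so it was not applied to named genes. No paired analysis was possible because the wild-type comparison has 1 array a side. A fit over both genotypes with genotype as a block would give their mean difference, and it was not run. With no replicate, leaving out a sample was not possible either, and no value here has a measure of its error between animals.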

Other observations

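Genes of other epithelia reached the level in 6 of 16 measured cases, of which 2 were 2-fold higher and none lower. These were Krt14, a keratin of basal cells in stratified epithelium, at 3.10 in normal colon and 5.34 in tumour, and the liver product Alb at 5.55 in normal colon and 6.88 in tumour. Of 11 housekeeping genes 10 stayed within 2-fold, with Gapdh at 11.17 in normal colon and 11.28 in tumour and B2m at 11.99 in normal colon and 11.95 in tumour, both named after their values were seen. Gusb, a lysosomal enzyme often used as a reference gene, was the exception at 6.80 in normal colon and 8.11 in tumour. It makes the higher share of this list 9.1%, beside 6.56% over all genes.

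Several shorter runs of neighbours held named genes of the report, picked after their values were seen. On chromosome 11 Axin2 stood beside Cep112, a centrosomal gene, and the noncoding Cep112it, with differences of 2.86, 3.09 and 2.61. On chromosome 17 the butyrophilin-like Btnl2, Btnl1 and Btnl5-ps differed by -1.38, -3.69 and -1.80. On chromosome 14 Clu stood between Scara3 and Gulo, with 2.31, 1.74 and 1.61. On chromosome 5 the efflux pump Abcb1a, which exports drugs from epithelial cells, differed by -2.38 beside Rundc3b (-1.62) and Slc25a40 (-1.11). Signal from overlapping transcripts, as for Cep112 and Cep112it, cannot be told apart here.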
